A study of Mus musculus with 48 samples.

Results

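Cytosolic ribosomal protein genes, which encode the protein parts of the ribosomes of the cytoplasm, were selected by symbol. Every gene named Rpl or Rps followed by a number was taken, with 1 optional letter (a, x, y or l) and 1 further digit allowed, together with Rpsa, Rplp0, Rplp1 and Rplp2, while names ending in -ps and the Rps6k kinases were left out. The rule used no measured value. It found 88 genes among the 47569 gene identifiers that both kinds of RNA library report: 36 of the small subunit, 49 of the large subunit and 3 of the stalk. RefSeq lists 83 of them as protein coding and 5 as pseudogenes (Rpl6l, Rps12l1, Rps3a2, Rps3a3 and Rps4l).

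The study compared adult C57BL/6J mice of 4 to 6 months labelled Setd1b cKO with mice labelled Control. Setd1b encodes a methyltransferase of histone H3 lysine 4. RNA-seq was done on hippocampal CA neurons (3 libraries labelled cKO, 3 labelled control) and on whole CA tissue (6 and 6). ChIP-seq of H3K4me3, H3K4me1, H3K9ac and H3K27ac was done on sorted neuronal nuclei, with 3 or 4 libraries for each mark and genotype. The Cre line, the deleted exons, the genotype of the control mice beyond the word Control, and whether any library pools mice are not given in the sources used here. Nothing in the labels says that the libraries came from separate mice, so the p-values measure the spread between these libraries.

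Each ribosome holds 1 copy of most of its proteins, so cells make them in closely matched amounts. Many of these mRNAs begin with a C and a run of pyrimidines, the 5′ terminal oligopyrimidine (TOP) tract, through which the kinase mTOR controls their translation. Mammalian ribosomal protein genes have also left many processed pseudogenes, near-identical copies elsewhere in the genome. Reads from a gene and from such a copy can be hard to tell apart, so counts of these genes are uncertain, and how the authors treated reads with several matches is not given in the sources used here.

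RefSeq starts (GRCm38.p6) were at hand for 63 of the 88 genes. The windows printed here hold the 10 bases before the annotated start and the first 20 bases of the gene, 5′ to 3′ on its strand. Capitals mark the TOP-like run, a C followed by at least 4 pyrimidines that begins within 5 bases of the start. The first 4 genes have such a run and the last 2 do not. Rps6, Rps27, Rpsa and Rpl9 stood among the members with the greatest neuron-to-tissue differences, and Rpl13a was at the opposite end.
Rps6 (chr4:86857348-86857377, minus strand): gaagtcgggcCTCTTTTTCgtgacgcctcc
Rps27 (chr3:90213629-90213658, minus strand): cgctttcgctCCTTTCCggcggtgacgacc
Rpl15 (chr14:18270967-18270996, minus strand): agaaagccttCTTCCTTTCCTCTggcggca
Rpl13a (chr7:45128726-45128755, minus strand): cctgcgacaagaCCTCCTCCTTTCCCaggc
Rpsa (chr9:120127756-120127785, plus strand): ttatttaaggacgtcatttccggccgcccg
Rpl9 (chr5:65391412-65391441, minus strand): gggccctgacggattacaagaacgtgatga
A run of this kind was found at 28 of the 63 members (44.4%) and at 18.5% of all 27025 genes with a RefSeq start. The heptamer CCGGAAG, searched on both strands of the 300-base window from 250 bases before the start to 50 bases into the gene, was in 25 of the 63 members (39.7%) and in 9.12% of all genes. GGGCGG was in 38 (60.3%, against 35.9% of all genes), and TATAAA in 6 (9.52%, against 14.2%).

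A pair of upstream regions shows these letters in place, with CCGGAAG or its complement CTTCCGG and, in Rpl19, CACGTG in capitals. The hexamer CACGTG was in 5 of the 63 members (7.94%) and in 7.24% of all genes.
Rps6 (chr4:86857368-86857617, minus strand): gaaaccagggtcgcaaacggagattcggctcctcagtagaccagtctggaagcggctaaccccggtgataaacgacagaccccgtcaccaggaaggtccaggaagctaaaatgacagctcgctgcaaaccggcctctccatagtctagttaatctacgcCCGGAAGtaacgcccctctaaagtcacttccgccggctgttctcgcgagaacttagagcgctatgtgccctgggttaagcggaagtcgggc
Rpl19 (chr11:98026460-98026709, plus strand): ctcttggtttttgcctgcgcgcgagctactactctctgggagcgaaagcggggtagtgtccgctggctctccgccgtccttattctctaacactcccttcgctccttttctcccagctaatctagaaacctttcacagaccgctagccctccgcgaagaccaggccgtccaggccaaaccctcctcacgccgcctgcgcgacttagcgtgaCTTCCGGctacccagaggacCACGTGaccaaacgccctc
The RNA differences of members with the run at the start and of members without it overlapped widely, and the classes were not tested against each other. The median log2 difference between neuron and whole CA RNA in controls was 0.30 over the 28 with a run (from -3.57 to 4.55) and 0.81 over the 33 tested without one (from -2.53 to 4.15).

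The neuron libraries held 55735204 to 69071100 gene counts and the whole CA libraries 14878128 to 20100286. Setd1b counts were higher, not lower, in libraries labelled cKO. In neuron RNA the log2 difference was 0.25 (SE 0.13, edgeR quasi-likelihood test, adjusted p = 0.361), and in whole CA RNA it was 0.59 (SE 0.11, adjusted p = 0.00415). Counts over a whole gene can come from exons outside a deletion, so they do not check the genotype, and the groups are called by their labels below. The neuron label was checked on markers, in counts scaled to the library total (CPM). Summed over 6 genes each, astrocyte markers stood at 28.9 to 36.8 CPM in neuron libraries and 1450 to 1810 CPM in whole CA, and microglial markers at 9.95 to 11.7 and 232 to 320 CPM. The 5 excitatory neuron markers were lower there too, at 2450 to 3338 CPM against 6370 to 7593 CPM in whole CA libraries, with 3 of the 5 not overlapping between the control groups and 0 higher without overlap, so they do not show an excess of neuronal RNA. The 3 dentate granule markers summed to 147 to 174 CPM in neuron controls and 51.8 to 79.6 CPM in whole CA controls, all 3 higher without overlap. Between the same groups 0 of 3 CA1 markers stood apart. Of 6 interneuron markers 4 were lower and 1 higher in neuron controls without overlap. Among all genes tested 31.7% were lower and 45% higher without overlap between these control groups. The share of mitochondrially encoded genes lay between 0.00814 and 0.0144% in neuron libraries and between 3.41 and 7.05% in whole CA libraries. A list of 8 nuclear-retained long RNAs summed to 38762 to 46033 CPM in neuron libraries and 5591 to 6921 CPM in whole CA libraries.

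The 88 genes together took a similar share of all gene counts in both materials. It was 0.253% ± 0.0086 (SD, n = 3) in neuron libraries labelled control and 0.234% ± 0.0056 (SD, n = 3) in those labelled cKO. The 3 control values were 0.258, 0.259 and 0.243% and the 3 cKO values 0.228, 0.239 and 0.234%, so the groups did not overlap. In whole CA RNA the share was 0.262% ± 0.0156 (SD, n = 6) in controls, from 0.245 to 0.289%, and 0.270% ± 0.0333 (SD, n = 6) in libraries labelled cKO, from 0.222 to 0.314%, so there the cKO values spanned all the control values. No test was run on this sum.

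**Figure D1:**
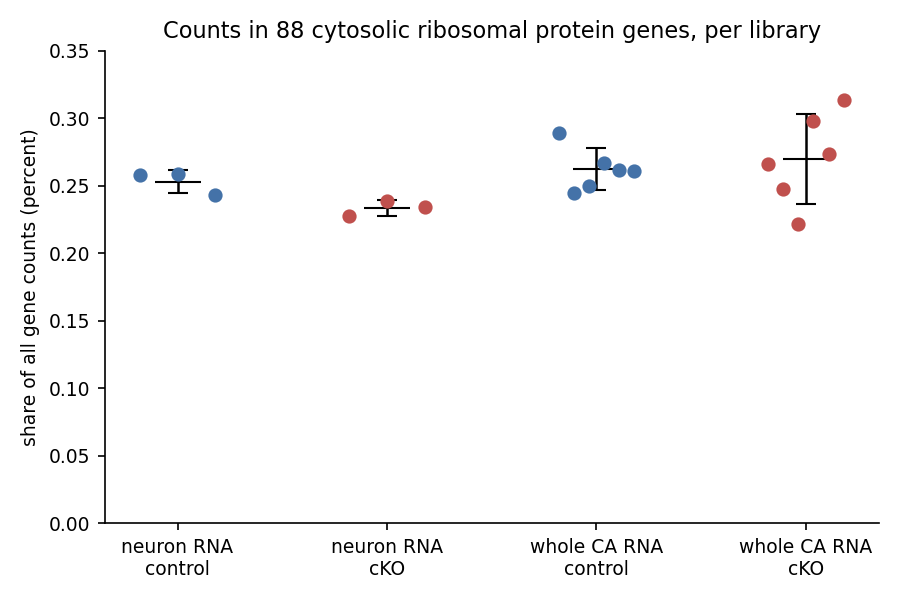
Share of all gene counts (percent) in the 88 cytosolic ribosomal protein genes, 1 point per library, with the mean and SD of each group as a bar. The 3 neuron libraries labelled cKO, at 0.228 to 0.239%, sit below the 3 controls, and the 6 whole CA libraries labelled cKO spread from 0.222 to 0.314%.

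In neurons most members read a little lower in libraries labelled cKO, and none passed the test. The median log2 difference between cKO and control was -0.16 over the 83 members tested, against 0.02 over all 19622 genes tested. Of the 83, 73 lay below 0, where 46.5% of all genes did, and 10 above (53.5%). None was called at an adjusted p under 0.05 by edgeR's quasi-likelihood test (2.75% of all genes were called, 2% lower and 0.744% higher), and DESeq2 called 0 as well. At an unadjusted p under 0.05, 25 members were lower (9.05% of all genes) and 0 were higher (8.17%). For 37 members all 3 cKO libraries stood below all 3 controls in CPM (11.1% of all genes did), and for 0 members all stood above (12.5%). The 5 members left out of the test, Rpl10l, Rpl39l, Rpl6l, Rps12l1 and Rps3a3, had at most 7 counts in any neuron library.

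Members of both subunits lay mostly below 0, and the subunits were not tested against each other. Among small subunit genes 30 of 34 tested lay below 0, with a median of -0.16, among large subunit genes 40 of 46, also with a median of -0.16, and all 3 stalk genes did. At an unadjusted p under 0.05 there were 8 small and 16 large subunit genes. A named pseudogene here is one whose symbol is the member's symbol followed by -ps or -rs. Of the 22 members with no named pseudogene 17 lay below 0, with a median of -0.13. Of the 61 with 1 or more 56 did, with a median of -0.17. The difference between these classes was not tested.

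Rpl23a, a large subunit protein near the exit of the nascent chain, had the smallest p-value. Its CPM values were 2.87, 3.45 and 3.34 in the neuron libraries labelled cKO and 5.35, 3.99 and 4.42 in the controls. The groups did not overlap, and the log2 difference was -0.52 (SE 0.14, edgeR adjusted p = 0.0936). Rps16, of the small subunit, read 11.1, 12.1 and 10.5 against 16.1, 14.5 and 12.6 CPM, a log2 difference of -0.37 (SE 0.11, edgeR adjusted p = 0.136). Rps15, also of the small subunit, read 39.4, 44.0 and 41.3 against 55.0, 51.3 and 45.9 CPM, a log2 difference of -0.30 (SE 0.09, edgeR adjusted p = 0.140). In each of these 3 genes control library 3, or control library 2 for Rpl23a, came nearest to the cKO libraries. The other members at an unadjusted p under 0.05 lay between -0.32 (Rpl36) and -0.18 (Rpl9). Among them were Rpl11, which can bind the p53 regulator Mdm2, at -0.26, and Rps10, of the small subunit, at -0.27. Rps2, of the small subunit, read 42.7, 46.6 and 48.7 CPM in libraries labelled cKO and 58.8, 52.2 and 54.6 in controls, without overlap, at -0.28 (edgeR adjusted p = 0.142). The 3 members above 0 with the smallest p-values were Rpl24, Rpl30 and Rps15a, at 0.17, 0.10 and 0.06, with edgeR adjusted p = 0.658, 0.737 and 0.749.

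Of the stalk proteins, which recruit translation factors, Rplp1 read 39.2, 45.5 and 43.3 CPM in neuron libraries labelled cKO and 55.0, 50.1 and 44.8 in controls, overlapping by 1 library. Its log2 difference was -0.24 (edgeR adjusted p = 0.255), and those of Rplp0 and Rplp2 were -0.19 and -0.06 (edgeR adjusted p = 0.354 and 0.759). Rps6, the small subunit protein phosphorylated by S6 kinase, was at -0.11, Rpsa, which is also known as a laminin receptor, at -0.20 and Rpl10, which joins the large subunit late in its assembly, at -0.08 (edgeR adjusted p = 0.597, 0.309 and 0.651). The paralogs Rpl22l1 and Rpl7l1 were at 0.02 and -0.00, Rps27l at -0.20 and Rps4l at -0.21, and none passed (smallest edgeR adjusted p = 0.479).

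The neuron control libraries were themselves not alike. Control library 3 was the lowest of the 3 controls in 59 of the 83 members, and its median log2 deviation from the mean of the 6 neuron libraries was 0.00, against 0.11 in each of the other controls and -0.09, -0.04 and -0.08 in the cKO libraries. Without control library 3, 77 members were below 0, and without control library 2, 70 were. At an unadjusted p under 0.05, 26 and 10 members were lower in those edgeR fits, and 10 without cKO library 1. The shares of all genes at that threshold are not given here for these fits. Single marker genes of other cells and of CA neurons differed between the genotypes in the same libraries. Of 3 choroid plexus and ependymal markers, whose sum was 13.5 to 15.4 CPM in libraries labelled cKO and 27.2 to 29.4 in controls, only Kl did not overlap (12.4 to 14.1 against 26 to 28.3 CPM), while Ttr read 0.0448 to 0.161 and 0.0644 to 0.132 CPM. Of 4 mural and fibroblast markers, with sums of 21.6 to 25.5 and 49.1 to 60.5 CPM, only Dcn did not overlap (9.76 to 12.7 against 39.0 to 47.5 CPM), and the means of Pdgfrb and Rgs5 were higher in libraries labelled cKO. Of 3 CA1 markers 1 did not overlap, Wfs1 (63.2 to 67.9 against 128.9 to 150.8 CPM). The 5 excitatory neuron markers summed to 2450 to 2833 and 2802 to 3338 CPM, with 2 of 5 not overlapping, and the 3 dentate granule markers to 112 to 147.0 and 147.1 to 174 CPM, with 2 of 3. Oligodendrocyte precursor markers went the other way, with sums of 4.82 to 5.22 and 3.78 to 4.49 CPM and 1 of 2 higher without overlap. Of 6 astrocyte and of 6 interneuron markers 1 each was lower without overlap. Of 6 oligodendrocyte, 6 microglial and 4 endothelial markers 0 stood apart. Among all genes tested 11.1% stood below and 12.5% above without overlap. No marker in these lists was at 0 in all neuron libraries, and the part of these genes or cells in the result was not tested. In bulk samples, fewer cells of a type and less RNA per cell cannot be told apart.

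In whole CA tissue the same genes showed no common direction. The median log2 difference between cKO and control was 0.02 over the 81 members tested and -0.00 over all 15362 genes. Of the 81, 31 lay below 0 and 50 above (50.8% and 49.2% of all genes). None was called by edgeR (4.17% of all genes were, 2.79% lower and 1.38% higher) and DESeq2 called 0, while at an unadjusted p under 0.05 there was 1 lower member (8.52% of all genes) and 1 higher (7.17%). The 6 cKO and 6 control libraries overlapped in CPM for all 81 members, while 1.78% of all genes stood below and 1.43% above without overlap. The 7 members not tested had at most 11 counts in any whole CA library.

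Rpl27, of the large subunit, was the lower one. Its CPM ran from 0.926 through a median of 1.38 to 2.11 in the libraries labelled cKO and from 1.46 to 2.78 in the controls, so the groups overlapped. The log2 difference was -0.56 (SE 0.23, edgeR adjusted p = 0.220). Rps4l, which RefSeq lists as a transcribed pseudogene, was the higher one: 9.72 to 16.1 CPM in libraries labelled cKO and 5.55 to 12.3 in controls, a log2 difference of 0.38 (SE 0.16, edgeR adjusted p = 0.231). The next members above 0 were Rpl41, the shortest ribosomal protein, at 0.14 and Rpl30 at 0.34 (edgeR adjusted p = 0.342 and 0.365), and below 0 they were Rpl17 at -0.25 and Rpl15 at -0.12 (edgeR adjusted p = 0.515 and 0.543). Rplp0 was at -0.21, Rplp1 at 0.02 and Rplp2 at 0.04, with smallest edgeR adjusted p = 0.646. Rps6 was at 0.20, Rpsa at -0.01, Rpl10 at -0.04, Rps27l at -0.23, Rpl22l1 at -0.03 and Rpl7l1 at 0.01 (smallest edgeR adjusted p = 0.588).

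**Figure D2:**
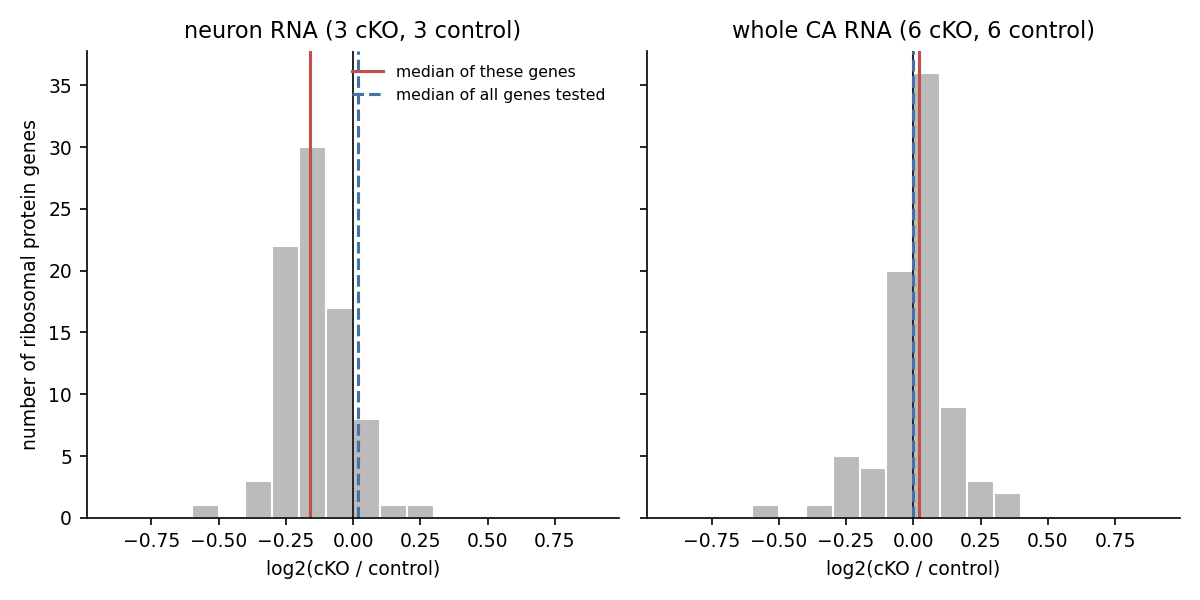
Number of ribosomal protein genes by log2 difference between libraries labelled cKO and labelled control, in neuron RNA (83 genes) and whole CA RNA (81 genes), with the median of these genes as a solid line and of all genes tested as a dashed line. In neuron RNA the bulk lies left of 0 with a median of -0.16, and in whole CA RNA the median is 0.02.

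The whole CA result turned on single libraries. The members moved together from library to library: cKO library 3 was the lowest of the 6 cKO libraries in 41 of the 81 members and cKO library 6 the highest in 36, and control library 1 was the highest control in 37. Their median log2 deviations were -0.19, 0.23 and 0.20, and all-gene medians stayed within 0.02 of 0. The share of mitochondrial counts in those 3 libraries was 7.05, 4.12 and 4.33%, of a range of 3.41 to 7.05%, and its part in the spread was not tested. The median coefficient of variation over members was 16.98% in whole CA controls (all genes 10.8%) and 6.25% in neuron controls (all genes 11.1%). These groups held 6 and 3 libraries of unlike depth. Of the 88 members 29 had under 100 reads in every whole CA library, and the part of low counts in this variation was not tested. Without cKO library 3, 14 of 81 members lay below 0, and without cKO library 6, 50 did. File names put replicates 1 to 3 in 1 sequencing lane and 4 to 6 in another, with both genotypes in each. Within the first lane 59 of 81 members lay below 0, with a median of -0.11, and within the second 22 did, with a median of 0.13.

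**Figure D3:**
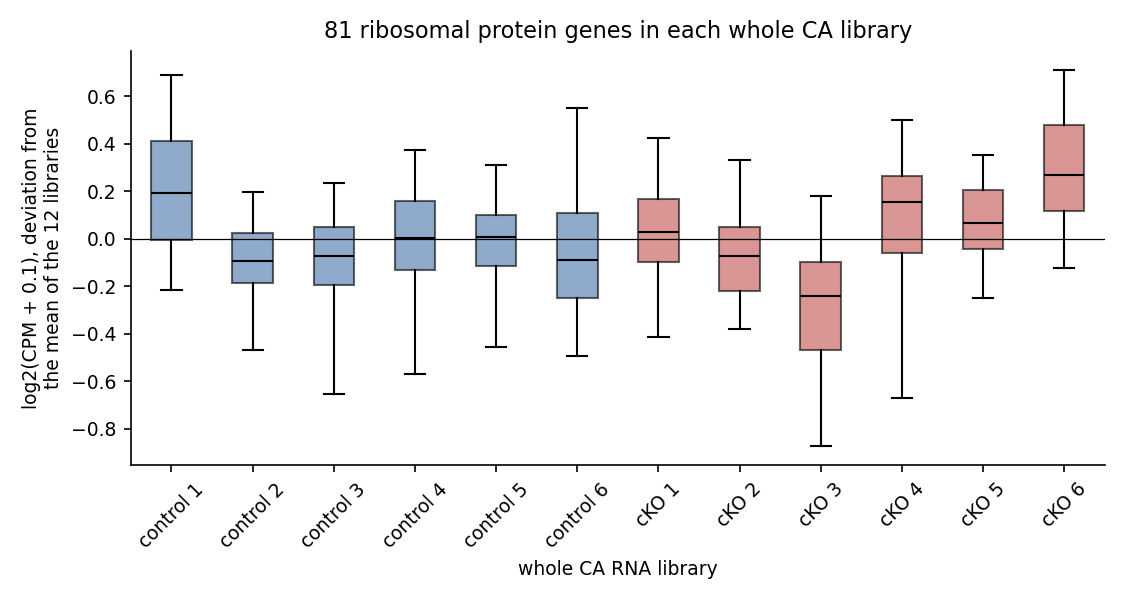
Deviation of 81 ribosomal protein genes in each whole CA library from the mean of the 12 libraries, as log2(CPM + 0.1). Boxes give the quartiles and median, whiskers the 5th to 95th percentile, and cKO library 3 sits lowest while cKO library 6 and control library 1 sit highest.

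The difference between the genotype effects in neurons and in tissue was tested in 1 fit of all 4 RNA groups. None of 82 members was called by edgeR (0.16% of all 17523 genes were, 0.131% lower and 0.0285% higher), and DESeq2 called 0. The median difference of differences was -0.17 (all genes -0.00), and 68 members had a lower value in the neuron contrast than in the tissue contrast (50.4% of all genes) and 14 a higher one (49.6%). At an unadjusted p under 0.05, 5 members were lower (3.99% of all genes) and 0 higher (4.11%), including Rps2 at -0.27, Rps4l at -0.59, Rpl31 at -0.43 and Rps15 at -0.35 on the log2 scale, with edgeR adjusted p from 0.569 to 0.608. With the first whole CA lane alone 44 of 82 members were lower, and with the second lane alone 71 were, with medians of -0.03 and -0.28.

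Between materials the members did not move as a block. In controls 71 of the 82 members tested differed between neuron RNA and whole CA RNA by edgeR (83% of all 17523 genes did): 44 were higher in neurons (43.2% of all genes) and 27 lower (39.8%). The log2 differences ran from -3.57 to 4.55 with a median of 0.64, against 0.07 for all genes. All 3 neuron controls stood above all 6 tissue controls in 44 members (45% of all genes) and below them in 23 (31.7%). Small subunit genes split 17 higher and 13 lower of 33, large subunit genes 26 and 12 of 46, and the stalk genes 1 and 2 of 3. Material was confounded with sequencing run, depth and the identifier table used for counting. The materials also differed in cell type markers, in mitochondrial share and in nuclear-retained long RNAs, as given above. The cell mix, the share of nuclear RNA and these technical factors cannot be told apart. In libraries labelled cKO 41 members were higher in neurons (43.5% of all genes) and 32 lower (39.9%), with a median of 0.47.

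**Figure D4:**
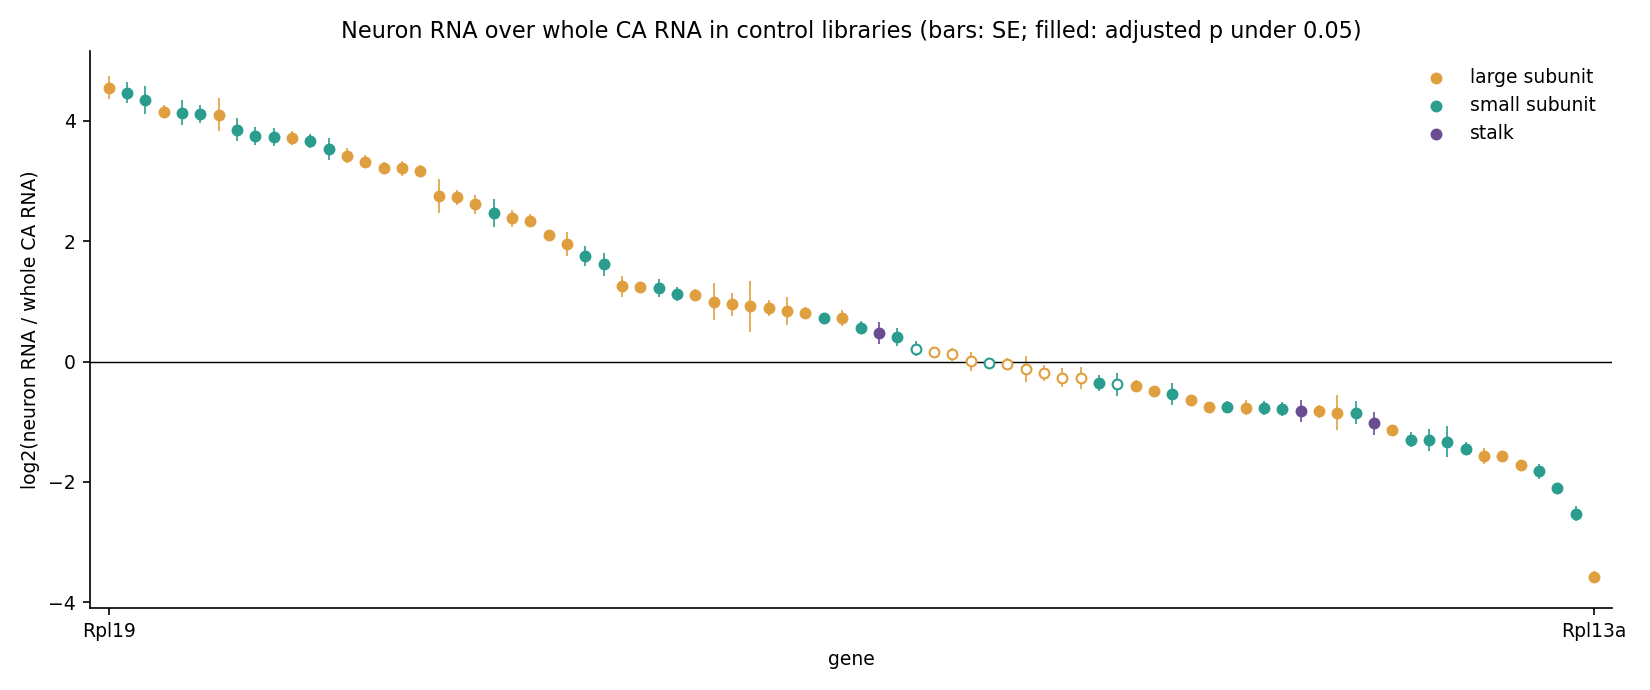
Log2 difference between neuron RNA and whole CA RNA in control libraries for each of the 82 members tested, ordered by size, with the SE as a bar and filled points at an adjusted p under 0.05. Members of both subunits lie along the whole range, from Rpl19 at 4.55 to Rpl13a at -3.57.

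The largest neuron excess came from genes with almost no reads in tissue. Rpl19, of the large subunit, read 27.03, 24.99 and 24.51 CPM in the neuron controls and 0.408 to 1.48 CPM (median 0.901) in the whole CA controls, where 7 to 25 reads stood behind each value. Its log2 difference was 4.55 (SE 0.19, edgeR adjusted p = 4.19e-16). Rps27 read 24.36, 24.04 and 20.33 CPM in neurons and 0.412 to 1.34 CPM in tissue, a log2 difference of 4.46 (SE 0.18, edgeR adjusted p = 1.60e-16). Rps6 read 22.8, 21.4 and 20.9 CPM in neurons and 0.617 to 1.14 CPM in tissue, from 10 to 21 reads. Its log2 difference was 4.34 (SE 0.23, edgeR adjusted p = 2.04e-14). In each of the 3 genes the lowest neuron library was far above the highest tissue library.

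Rpl9, Rps29 and Rpsa followed, at 4.15, 4.13 and 4.11 (edgeR adjusted p = 1.00e-19, 1.18e-14 and 1.55e-17). For Rpl9 the tissue controls lay at 2.21 to 3.94 CPM and the neuron controls at 63.2 to 65.2 CPM. Other members with a high difference, picked after their values were seen, were Rpl12 at 3.71, Rps27a at 3.66, Rpl17 at 3.42, Rpl10 at 3.32, Rpl10a at 3.22 and Rpl5 at 3.16. Rps27a is made as a fusion with ubiquitin, and Rpl5 carries the 5S RNA into the large subunit.

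Rpl13a, a large subunit protein also known from interferon-dependent translational control, was the member most tilted to tissue. It read 13.5, 13.1 and 13.2 CPM in the neuron controls and 128 to 155 CPM (median 135) in the whole CA controls, without overlap. The log2 difference was -3.57 (SE 0.10, edgeR adjusted p = 1.94e-19). Rps3, a small subunit protein that also acts in DNA repair, read 42.1, 44.8 and 44.4 CPM in neurons and 196 to 247 CPM in tissue, a log2 difference of -2.53 (SE 0.12, edgeR adjusted p = 5.86e-15). Rpl4, of the large subunit, stood at -1.71 (SE 0.07, edgeR adjusted p = 2.83e-16). These differences were alike in libraries labelled cKO, where Rpl13a stood at -3.74 and Rpl4 at -1.83. The 11 members that did not pass in controls lay between -0.38 (Rps26) and 0.21 (Rps3a1), with Rpl35, Rps15a and Rpl37 at 0.00, -0.02 and -0.04 (edgeR adjusted p = 0.99, 0.812 and 0.751). Rps6, Rpl9 and Rpsa, high in neuron controls, stood at 4.05, 4.00 and 3.93 in the same comparison of libraries labelled cKO. CPM is not corrected for gene length, so levels were compared between libraries and not between genes.

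Among paralogs, which replace or accompany a standard member in some tissues, Rps27l and Rpl7l1 were lower in neuron controls than in tissue controls, at -0.85 and -0.75 (edgeR adjusted p = 0.000275 and 1.35e-08). Rps4l, listed with the paralogs although RefSeq has it as a transcribed pseudogene, was lower at -0.54 (edgeR adjusted p = 0.00919), with overlapping groups. Its edgeR adjusted p was 0.0579 without neuron control library 2 and 0.163 with whole CA replicates 4 to 6 only. With scaling by library size only it was 0.0685. Rpl22l1 read 16.7, 27.1 and 20.8 CPM in neurons and 13.04 to 24.2 CPM in tissue, overlapping, with a log2 difference of -0.12 (edgeR adjusted p = 0.595). Rpl3l, the striated muscle form of Rpl3, had 33 to 41 reads in neuron controls and 0 to 11 in tissue controls, with overlapping CPM and a log2 difference of 0.92 (edgeR adjusted p = 0.0476). That call was lost without any 1 of the neuron controls or without whole CA control 1, 2, 4 or 6 (edgeR adjusted p of 0.0575 to 0.117). The Rpl3l call was also lost with whole CA replicates 1 to 3 only (edgeR adjusted p = 0.159). The testis forms Rpl10l and Rpl39l were not tested: Rpl10l had 0 reads in all 18 RNA libraries and Rpl39l at most 9 in any. Of the stalk genes Rplp0 was at -1.03 and Rplp1 at -0.81 (edgeR adjusted p = 4.37e-05 and 0.000281). Rplp2 was at 0.47 (edgeR adjusted p = 0.0245). Its edgeR adjusted p was 0.0746 without neuron control library 2 and 0.0552 without whole CA control library 2. With whole CA replicates 1 to 3 only it was 0.0682.

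Members with at least 2 named pseudogenes lay more often above 0 than the rest, a difference that was not tested. Pseudogenes under other symbols, such as Rpl6l, Rps3a2 and Rps3a3, were not counted, so these classes do not measure all copies of a gene. The 43 tested members with at least 2 had a median log2 difference of 1.95, with 34 above 0 and 9 below (52.2% and 47.8% of all genes). The 18 members with 1 had a median of -0.59, with 6 above 0, and the 21 with 0 had a median of -0.40, with 8 above 0. In whole CA controls the median level of these classes was 6.74, 26 and 22.1 CPM, and in neuron controls 26.4, 22.5 and 27.1 CPM. Across the 82 members Spearman's rho between the log2 difference and the number of pseudogenes was 0.50, a description over genes that share libraries and gene ancestry. Reads assigned to the 273 named pseudogenes of 59 members came to 0.549% of the counts of all 88 members in neurons and 0.561% in tissue. For some single genes the share in tissue was much larger. Summed over the 12 whole CA libraries, pseudogenes of Rpsa had 199 reads against 372 for Rpsa itself, and those of Rpl19 had 83 against 183. Over the 6 neuron libraries the same pairs read 78 against 12357 and 42 against 8981. Rpl14, with 1 named pseudogene, had 1146 pseudogene reads against 4025 in tissue and 129 against 13234 in neurons. Pseudogenes of Rps19 went the other way, with 893 reads against 8131 in neurons and 157 against 5489 in tissue. Rps27 and Rps29, both with 1 named pseudogene, were among the members with the largest neuron excess. Their pseudogenes had 0 and 1 reads in tissue, against 186 and 178 for the genes themselves. Whether reads with several matches were handled in the same way for both materials was not tested.

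Genes that work with the ribosome were counted in the same fits. Of the other subunit proteins and fusions, 5 (neurons) and 4 (whole CA) were tested, and edgeR called 0 in either genotype comparison. In neuron RNA Fau, a ribosomal protein made as a fusion with a ubiquitin-like protein, was at -0.22 and Rack1, a scaffold on the small subunit, at -0.16 (edgeR adjusted p = 0.266 and 0.326). Of 35 ribosome biogenesis factors 0 were called in either genotype comparison, and of 37 translation initiation and elongation factors 1 was, Eif4g3, higher at 0.23 in whole CA (edgeR adjusted p = 0.0378). Of 17 genes of signalling to ribosomal protein synthesis 1 was called, Myc, a transcription factor for many ribosomal protein genes. Myc was lower at -0.60 in neuron RNA (SE 0.11, edgeR adjusted p = 0.0249). Its difference of genotype effects between materials was -0.46 and did not pass (edgeR adjusted p = 0.580). Between materials in controls, 27 translation factors were lower and 3 higher of 37 (39.8% and 43.2% of all genes), while 14 biogenesis factors were lower and 16 higher of 35. Among 14 other genes with TOP mRNAs, 7 were lower and 5 higher in neurons, read against the same shares of all genes.

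H3K4me3, the mark of active gene starts, covered the starts of nearly all members. Of the 63 members with a RefSeq start, 60 lay inside a peak in all 4 neuron libraries labelled control and 58 in all 4 labelled cKO, where 43.0% and 42.6% of all 27025 starts did. Taken singly, cKO library 1 had a peak at 92.1% of the 63 starts, and every other library of both groups at 95.2%. Rpl3l, Rpl10l and Rpl39l had no peak at their start in any of the 8 libraries. The length covered by peaks within 2500 bp of the start had a median over members of 2507 bp in controls, with 2090 bp over all genes tested.

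That covered length was shorter in libraries labelled cKO at 57 of the 60 members tested (73.4% of all 14793 genes tested). By limma on log2(bp + 100), 19 members were lower at an adjusted p under 0.05 (21.1% of all genes) and 0 higher (0.913%). The median log2 difference was -0.15 over members and -0.08 over all genes, and 21 members were lower without overlap between groups (26.6% of all genes) and 0 higher (1.22%). When each library was centred on its own median, 11 members were called lower and 1 higher, 37 of 60 lay below 0 and the median was -0.034. The shares of all genes in that setting are not given here, so these counts cannot be set against the shares above. The 4 members with the smallest p-values were picked after their values were seen. Rps4x, the X-linked small subunit gene, had 1166, 1307, 1295 and 1288 bp covered in libraries labelled cKO and 2020, 2505, 2510 and 2292 bp in controls. Its log2 difference was -0.83 (SE 0.07, limma adjusted p = 0.000528). Rpl37a, Rpl9 and Rpl6 were at -0.37, -0.30 and -0.65 (limma adjusted p = 0.000938, 0.00142 and 0.00186). For Rpl9 the libraries labelled cKO had 2316, 2462, 2409 and 2446 bp covered and the controls 3117, 2943, 3020 and 2913 bp, without overlap. For Rpl6, of the large subunit, the values were 1477, 1689, 1438 and 1364 bp against 2111, 2530, 2387 and 2577 bp, also without overlap. The other 15 members called lower lay between -0.39 (Rps13) and -0.13 (Rpl24), while Rps6 had 2350 to 2943 bp against 2897 to 2965 bp, overlapping, at -0.16 (limma adjusted p = 0.149). The 3 members above 0 were Rpl19, Rps27l and Rpl41, at 0.06, 0.02 and 0.02.

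The groups stood apart on the gene side of the start. After the start, the median covered length over members was 1272 to 1432 bp in the 4 libraries labelled cKO and 1611 to 1707 bp in the 4 controls. Before the start it was 736 to 848 bp and 757 to 818 bp, overlapping. Over all genes tested the values after the start were 1049 to 1149 bp and 1191 to 1235 bp. At 1500 bp into the gene 19.05 to 38.10% of the 63 members lay inside a peak in libraries labelled cKO and 52.38 to 68.25% in controls. Peaks of the 4 cKO libraries were called against 1 input library of 31264434 tags and those of the controls against another of 28761335 tags, so genotype and input cannot be told apart. The libraries themselves held 24377163 to 27829513 tags when labelled cKO and 25976180 to 26925974 tags when labelled control.

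**Figure D5:**
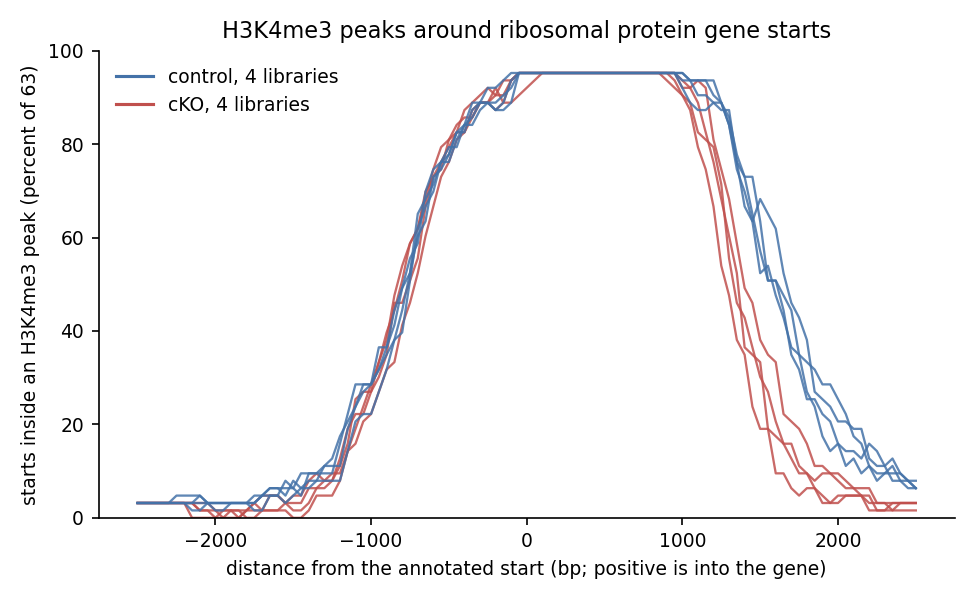
Percent of the 63 ribosomal protein gene starts with an H3K4me3 peak at each distance from the start (bp, positive into the gene), 1 line for each of the 8 neuron libraries. Before the start the lines of both groups overlap, and at 1500 bp the 4 cKO libraries lie at 19.05 to 38.10% and the 4 controls at 52.38 to 68.25%.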

How the data were processed

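RNA values are the deposited counts per gene (per the labels, from TruSeq libraries of total RNA); the aligner, the counter and the treatment of reads with several matches are not given in the sources used here. Whole CA files end in 5 summary rows, all 0, which were left out. Peak tables of H3K4me3 were made by the authors with MACS 2.1.1.20160309 at a q-value cutoff of 0.1, per the file headers, per library and on mm10 (GRCm38), per the submitters' processing notes. Symbols were matched to 99.3% (neuron) and 98.9% (whole CA) of identifiers.

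Counts were tested over all genes with edgeR 4.0.16 (R 4.3.3; TMM factors, filterByExpr, quasi-likelihood test) and Benjamini-Hochberg adjustment, called at an adjusted p under 0.05. Genotype effects were fitted within each material, and materials and the difference of effects in 1 fit of the 4 RNA groups. For RNA, each SE was derived from the edgeR test, as the absolute log2 difference over the square root of its F statistic. DESeq2 1.42.0 was an alternative. Peak cover was tested with limma 3.58.1 for genes with cover in at least 3 libraries, a test added after seeing the data, as were its alternatives. The fits were tested on simulated data.

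Members and lists were chosen with earlier results of these data known. Named members were those called (the 8 with the smallest p in each direction where over 15 were called), or the 3 with the smallest p each way where under 3 were, the 5 highest and 5 lowest between materials, the paralogs, and Rpsa, Rplp0, Rplp1, Rplp2, Rps6 and Rpl10. Sequences are from RefSeq, GRCm38.p6. Precision follows from 3 or 6 libraries a group and the totals given in the text. Some genes that this rule names are not reported here.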

Additional observations from a re-analysis of the deposited data

Results flagged for a closer look

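Values that stood far from the rest of their group were looked for in 96 groups of 4 or 6 libraries, and 7 were found; chance alone gives about 1 in 20. Neuron RNA groups, of 3 libraries, were not examined. Control library 1 stood above the other controls in Rplp0, at 54.7 CPM, and in Rpl8, at 188 CPM. Control library 6 was low in Rpl22l1, at 13.04 CPM, control library 4 was high in Rpl31, at 3.70 CPM, and control library 2 was low in Rps2, at 25.6 CPM. Library 1 labelled cKO was high in Rps4l, at 16.1 CPM. In the H3K4me3 data, library 1 labelled cKO was low at Rps4x, at 1166 bp covered. No member passed the test of a genotype effect that differs between materials.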

How the results depend on the processing

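No called member reversed direction under any alternative run. In neuron RNA an adjusted p under 0.1 called 1 member (Rpl23a) and 930 of all 19622 genes, and all other alternatives called 0 members. With the replicate number as a block, 0 members were called in neuron RNA and 0 in the difference of effects, and 2 were in whole CA, Rps4l at 0.40 and Rpl30 at 0.34 (edgeR adjusted p = 0.0436 and 0.0406). Replicate numbers did not pair all libraries, and not every library correlated best with its own number (correlations of deviations for same-numbered libraries of -0.05 to 0.28 in neurons and -0.06 to 0.19 in whole CA). Members below 0 in whole CA numbered 59 in replicates 1 to 3 and 14 to 50 when libraries were left out in turn. In the difference of effects they numbered 44 with whole CA replicates 1 to 3. Between materials, library size without TMM moved the median of all genes in controls from 0.07 to 0.25 and that of members to 0.82, and in cKO that of members to 0.64. With whole CA replicates 1 to 3 or 4 to 6 the cKO median was 0.62 or 0.16. With each library centred, 12 members passed for H3K4me3, 37 lay below 0 and the median was -0.034, and with the block 15 passed. The numbers of all genes passing in these H3K4me3 settings are not given here. Genes called in all numbered 539 in neuron RNA, 207 to 482 with a library left out, 327 with the block and 833 by DESeq2. In whole CA they were 640, and 207 and 224 within the lanes and 839 with the block. For the difference of effects they were 28, 67 by DESeq2, 69 with no filter and 16 with whole CA replicates 4 to 6. Depth also limits the whole CA values: 29 of 88 members had under 100 reads in every whole CA library.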

Other observations

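Other gene groups were counted in the same comparison of materials, without a test against the cytosolic ribosomal protein genes. Of 97 nuclear-encoded oxidative phosphorylation genes tested in controls, 84 were lower in neuron RNA and 8 higher by edgeR (39.8% and 43.2% of all genes), with a median log2 difference of -1.43, and Cox4i1 and Cox6b1 were at -2.69 and -3.07. Of 77 mitochondrial ribosomal protein genes 51 were lower and 18 higher, with a median of -0.57. In the genotype comparisons 1 mitochondrial ribosomal protein gene was called, Mrpl33, where 4.17% of all genes were called in whole CA and 2.75% in neuron RNA. Mrpl33 was higher at 0.36 in whole CA (edgeR adjusted p = 0.0382) and at 0.37 in neuron RNA without passing (edgeR adjusted p = 0.0515).

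H3K27ac peaks lay on 41 of 63 starts in all 3 control libraries and on 39 in all 4 labelled cKO (30.6% and 26.3% of all starts), and H3K9ac peaks on 26 in all 4 control libraries and 23 in all 3 labelled cKO (25.9% and 26.6%). H3K4me1 peaks lay on 0 starts in all 4 control libraries and on 2 in all 4 labelled cKO, where 21% and 24.9% of all starts had one. For H3K27ac and H3K9ac the number of libraries differs between the genotypes. The counts of these 3 marks were not tested between genotypes.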
